A study of Saccharomyces cerevisiae with 14 samples.

Results

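Transcript levels on 2 of the 14 arrays of a rapamycin time course in budding yeast are described here, namely the arrays of fermentation BY005 labelled 10 min and 14 min after the drug. They were chosen by their labels alone, as neighbouring samples of 1 culture, and all 5449 genes with a gene-specific probe set were compared between them. The difference of the log2 intensities, 14 min minus 10 min, is called the step. Between these arrays the transcripts for building ribosomes ran down further, with SPB1, which encodes a methyltransferase of the large subunit precursor, falling 5.77-fold. Of the 378 genes that had risen early, 4 (1.06%, against 7.12% of all genes) were called lower: YKR075C, HAP4, MIG3 and MTH1.

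The cells were wild-type YSBN6, a laboratory strain of Saccharomyces cerevisiae, grown in a batch fermentor at 30 °C and pH 5 on defined minimal medium. Glucose was supplied at 20 g/L as carbon source, with glutamine as nitrogen source at 1 g/L. Rapamycin was pulsed into the growing culture to 400 µg/L. BY005 was sampled 10 min before the pulse, called steady state, and after it at 3, 7, 10 and 14 min as well as at 24, 56 and 120 min, with 1 array at each time. Fermentations BY006 and BY007, separate cultures of the same strain under the same conditions, were sampled at steady state, 7 min and 24 min. Genotype and medium were the same in every sample, and no sample came from a culture kept without rapamycin after the steady-state sample. Time in culture and rapamycin cannot be told apart, and in total RNA from a whole culture fewer cells that make a transcript cannot be told apart from less of it per cell.

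Rapamycin, bound to its receptor, inhibits TOR complex 1, the kinase that couples growth to nutrients. While the complex is active, yeast spends much of its transcription on ribosomes: RNA polymerase I makes the large rRNA precursor, small and large subunit assembly factors cut, fold and export it, and RNA polymerase III makes 5S rRNA and tRNA. When it is inhibited, that programme is shut down, the GATA factors Gln3 and Gat1 switch on genes for poor nitrogen sources, and Msn2 and Msn4 switch on stress genes.

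Array intensities carry no read depth, and the small number of arrays sets their precision. Array medians over genes lay between 10.64 and 10.79 (log2), the lowest on the 14 min array and 10.75 on the 10 min array. Probe sets made for genes of fission yeast, with no matching RNA in these samples, had a 95th percentile of 5.63, and a level under it is treated as background. Hybridisation controls, spiked in after extraction, had a median of 10.57 on the 10 min array and 10.99 on the 14 min array (range of the 14 arrays 7.42 to 11.0). The 3′ probe set of ACT1 read 0.59 to 0.83 above its 5′ probe set on the 14 arrays. On a line through all genes from steady state, at 0%, to 24 min, at 100%, drawn with BY006 and BY007 alone, the BY005 arrays lay at 1.11% at steady state, 0.828% at 3 min, 21.0% at 7 min, 48.2% at 10 min, 76.3% at 14 min and 93.9% at 24 min. The 10 and 14 min arrays thus came in the order of their labels. At 7 min BY006 lay at 4.29% and BY007 at 15.6%, so the 7 min cultures, which enter the estimate of the spread, had not moved equally far.

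With 1 array a side the step has no replicate check of its own. Its standard error came from a limma fit to all 14 arrays, in which the lone arrays were assumed to vary like the 3 times with 3 arrays, and a gene was called at an adjusted p under 0.05. The standard error of the median gene was 0.126. Of the 5449 genes, 388 (7.12%) were called lower at 14 min and 18 (0.330%) higher, out of 1174 with an unadjusted p under 0.05. Log2 falls of at least 1, with no test, numbered 208 (3.82%) and rises of that size 9 (0.165%); 144 and 2 of them were also called. The median called fall was -0.80 and the median called rise 0.76. The median step of all genes was -0.08 with quartiles of -0.23 and 0.04, and 66.9% of the steps were below 0. Setting the median of each array equal moved the median of all genes up by 0.115, to 0.03, and quantile normalization over the genes alone moved it up by 0.112. The calls lower and higher then numbered 171 and 28 with the medians set equal, and 236 and 105 after quantile normalization. With the fermentation as a block in the fit there were 365 lower and 40 higher.

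The plot of steps by list shows where the falls lay. Of 35 lists covering 1108 measured genes, the highest shares called lower were in tRNA and rRNA modification (26 of 37), 60S assembly factors (48 of 72) and the small subunit processome (32 of 50), against 7.12% of all genes. The first of these holds genes that act on tRNA as well as on rRNA, and the small nucleolar RNP list had 2 of 12 called. The lists held 193 of the 388 called falls. Each median below stands beside -0.08 for all genes. Each count called lower or higher stands beside 7.12% or 0.330% of all genes.

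**Figure D1:**
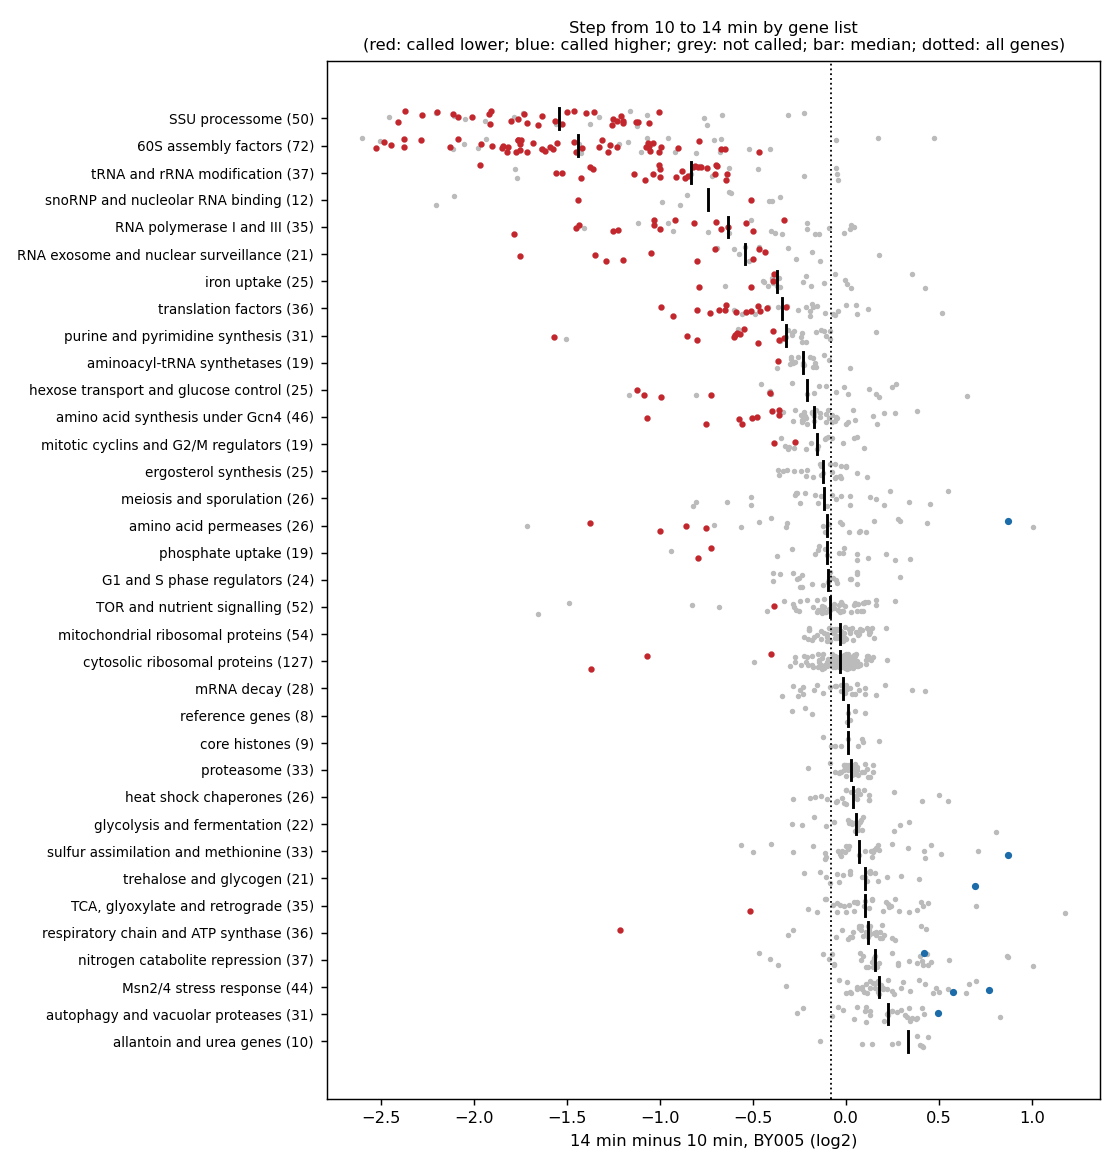
Log2 difference between the 14 and 10 min arrays of BY005 (x axis) for each member of 35 gene lists (rows, number of members measured in brackets), with 1 point a gene. Red and blue points were called lower and higher by limma, the black bar is the list's median and the dotted line the median of all genes, -0.08. The small subunit processome and the 60S assembly factors have medians of -1.54 and -1.44, and the ribosomal protein lists sit at -0.03.

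The small subunit processome is the particle that forms on the nascent rRNA precursor and prepares the small subunit. All 50 members measured had a step below 0, with a median of -1.54 and a range from -2.46 to -0.22; 32 were called lower and none higher. The SD that replicate arrays of the other times imply for a difference in the mean of this list between arrays was 0.37. UTP-B, a subcomplex that joins the particle early, had steps from -2.46 to -2.05 in its 6 genes, 4 of them called. UTP21, one of them, read 11.87, 11.94, 11.48, 10.56, 8.44 and 7.35 at steady state, 3, 7, 10, 14 and 24 min in BY005, the order used for every such series below. Its level at 14 min was below that of every earlier array, with a step of -2.11 ± 0.37 (SE; adjusted p = 0.0158). UTP13 of the same subcomplex read 11.63, 11.78, 11.04, 9.71, 7.25 and 6.21, and its step of -2.46 ± 0.69 did not pass the test (adjusted p = 0.0726). The 7 genes of UTP-A, the subcomplex that binds the precursor's start, had steps from -1.92 to -1.13 with 5 called, and the 3 genes of the Mpp10 complex from -1.66 to -1.06, all called.

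Other processome genes moved alike. UTP25, for a processome protein, read 11.18, 11.23, 10.48, 8.74, 6.33 and 7.12. Its 14 min level was the lowest of the 6, and the step was -2.41 ± 0.42 (adjusted p = 0.0158). ENP1, needed for both processing and export of the small subunit precursor, read 10.82, 10.82, 10.16, 9.21, 7.19 and 6.50, a step of -2.01 ± 0.40 (adjusted p = 0.0225). DIP2, PWP2 and UTP18, all of UTP-B, had steps of -2.37, -2.28 and -2.20 with adjusted p-values of 0.0442, 0.0443 and 0.0349; without the steady-state array of BY006 these became 0.0771, 0.0771 and 0.0652, with array medians set equal 0.0697, 0.0706 and 0.0605, and with the block 0.0507, 0.0713 and 0.0688. UTP14, which activates the helicase Dhr1, had a step of -2.09 (adjusted p = 0.0255, 0.0506 without that array). The smallest steps in the list were those of RRP7, -0.22 ± 0.15, and BUD21, -0.31 ± 0.27, neither of them called.

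The 60S assembly factors, which build the large subunit, had a median step of -1.44 over 72 genes, with 48 called lower and none higher; the SD of a difference between arrays for the mean of this list was 0.28. SPB1 read 11.66, 11.85, 11.45, 10.01, 7.48 and 7.68. Its level changed little up to 7 min, and its step of -2.53 ± 0.23 (adjusted p = 0.00377) took it close to its level of 24 min. NOG1, a GTPase of the nucleolar precursor, read 11.96, 12.01, 11.45, 10.13, 7.65 and 7.12 and stepped by -2.48 ± 0.50 (adjusted p = 0.0238). RRS1, which brings the 5S particle into the precursor, read 10.98, 11.19, 10.72, 9.31, 6.93 and 6.21 and stepped by -2.38 ± 0.37 (adjusted p = 0.0130). For all 3 genes the 4 min between 10 and 14 min held a larger fall than the 3 min before or the 10 min after.

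Further 60S factors moved in the same way. CGR1, needed for processing of the precursor, read 11.78, 12.01, 11.15, 9.44, 7.15 and 7.15, a step of -2.28 ± 0.36 (adjusted p = 0.0135). URB2, required for an early precursor, stepped by -2.09 ± 0.29 (adjusted p = 0.00998). The 3 genes of the Rix1 complex, which acts late in the nucleus, had steps from -2.13 to -1.44; RIX1 itself read 10.76, 10.89, 10.20, 9.0, 6.86 and 6.88 (step -2.13 ± 0.26, adjusted p = 0.00732). PUF6 and RLP24 had steps of -2.45 and -2.38 with adjusted p-values of 0.0318 and 0.0378, which became 0.0592 without the steady-state array of BY006 and 0.0688 without that of BY007, and 0.0544 and 0.0616 with array medians set equal; with the block that of PUF6 was 0.0538. NOC2, which escorts precursors through the nucleus, showed the largest fall measured on any gene of the list and did not pass the test (-2.60 ± 0.73, adjusted p = 0.0702). At the other end of the list, SSF2 read 0.17 ± 0.42 and NOP8 0.47 ± 0.80, both uncalled.

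The small nucleolar RNPs guide chemical modification of rRNA. Their list, with nucleolar RNA binding proteins, had a median step of -0.74 over 12 genes, 2 of them called lower. NHP2, a core protein of the box H/ACA particles, read 13.21, 13.27, 13.09, 12.51, 11.07 and 10.36; the step of -1.44 ± 0.10 had the smallest adjusted p of all genes, 0.00161. The 4 box C/D core genes, among them the methyltransferase gene NOP1, had steps from -0.99 to -0.35 with none called; NOP1 read 13.27, 13.19, 13.16, 12.91, 12.28 and 10.08, and most of its fall came after 14 min. NSR1, a nucleolar protein that binds pre-rRNA, read 12.68, 12.76, 12.35, 11.62, 9.51 and 8.0 (step -2.11 ± 0.66, adjusted p = 0.0979).

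Among genes for transcription of rRNA and tRNA, the enzymes' subunits and the initiation factors had different values. The list of RNA polymerases I and III had a median step of -0.64 over 35 genes, 16 called lower. All 10 genes of subunits found in RNA polymerase III alone had steps between -1.25 and -0.54, and 9 were called. The 7 of RNA polymerase I alone lay between -1.79 and -0.64, with 3 called. RPA12, one of these, read 11.62, 11.69, 10.97, 9.27, 7.48 and 8.21, a step of -1.79 ± 0.22 (adjusted p = 0.00732). RPC19, which both enzymes share, read 12.06, 12.23, 11.68, 10.43, 8.99 and 9.71, a step of -1.44 ± 0.20 (adjusted p = 0.00998). RPA190, the largest subunit of RNA polymerase I, read 12.34, 12.35, 12.26, 11.98, 11.24 and 8.37: its step of -0.74 ± 0.31 was not called (adjusted p = 0.210), and it was lower again at 24 min. The 7 RNA polymerase I initiation genes had steps from -0.63 to 0.03 with none called, and the 8 of TFIIIB and TFIIIC from -0.34 to 0.04 with 1 called. The difference between subunits and initiation factors was not tested.

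Genes for modifying tRNA and rRNA had a median step of -0.84 over 37 genes. TRM2, a tRNA methyltransferase, read 11.30, 11.33, 10.80, 9.58, 7.61 and 8.62, a step of -1.97 ± 0.37 (adjusted p = 0.0190). TRM8, a subunit of another tRNA methyltransferase, read 10.79, 10.87, 10.37, 9.43, 7.90 and 7.73, a step of -1.53 ± 0.18 (adjusted p = 0.00652). TRM2 was higher at 24 than at 14 min, whereas TRM8 was at about the same level. The RNA exosome, which trims and degrades nuclear RNA, had a median of -0.54 over 21 genes, 10 of them called lower. MTR4, the helicase that feeds it, read 11.86, 11.64, 11.73, 11.18, 9.83 and 7.91 (step -1.35 ± 0.20, adjusted p = 0.0112), and its ring subunit MTR3 10.15, 10.12, 10.10, 9.04, 7.75 and 8.08 (step -1.29 ± 0.15, adjusted p = 0.00652).

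**Figure D2:**
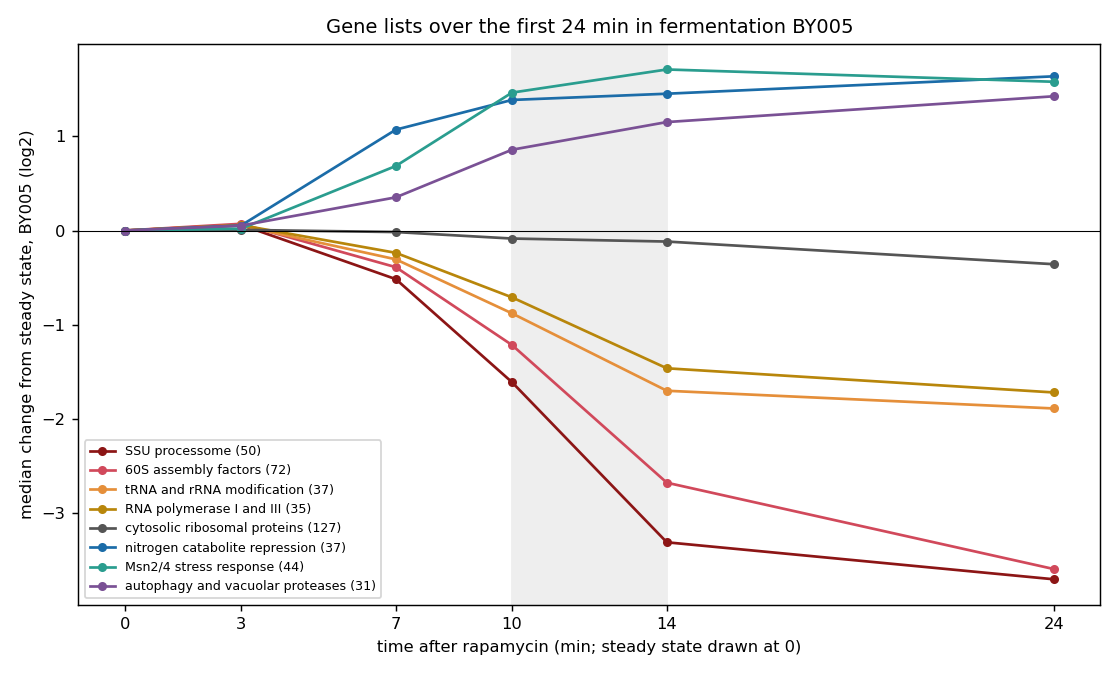
Median log2 change from the steady-state array of BY005 (y axis) for 8 gene lists against minutes after rapamycin (x axis; steady state drawn at 0, number of genes in brackets), with 1 array a point and the interval from 10 to 14 min shaded. The processome goes from -1.61 at 10 min to -3.31 at 14 min and -3.71 at 24 min, while the stress and nitrogen lists have reached most of their rise by 10 min.

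The ribosome itself and its accessory factors moved less. The 127 cytosolic ribosomal protein genes had a median level of 13.97 at 10 min, where the highest gene on that array read 14.85. Their median step of -0.03 turned to 0.08 with array medians set equal. Of them 3 (2.36%, against 7.12% of all genes) were called lower and none higher. The 3 were RPL22B (-1.37 ± 0.21, adjusted p = 0.0130), RPS9A (-1.07 ± 0.22, adjusted p = 0.0244) and RPS27A (-0.41 ± 0.09, adjusted p = 0.0331). RPL22B read 12.63, 12.77, 12.0, 11.05, 9.68 and 8.76 and had been falling since 7 min. RPS27A lost its call, at an adjusted p of 0.0653, without the steady-state array of BY006, and RPS9A, at 0.0533, with array medians set equal. The 54 mitochondrial ribosomal protein genes had no call and a median of -0.03, which also turned, to 0.08.

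Translation factors had a median step of -0.34 over 36 genes, 14 called lower. NIP1, a subunit of eIF3, read 12.42, 12.32, 11.89, 11.17, 10.18 and 10.23 (step -1.0 ± 0.20, adjusted p = 0.0252, and 0.0508 with the block), and 5 of the 6 eIF3 genes were called. RLI1, an ATPase needed for ribosome recycling, read 11.87, 11.75, 11.50, 11.23, 10.30 and 9.69, a step of -0.93 ± 0.16 (adjusted p = 0.0155). The 6 elongation factor genes lay between -0.15 and 0.06 with none called. Aminoacyl-tRNA synthetases had a median of -0.23 over 19 genes, with YDR341C, the arginyl-tRNA synthetase gene, called (-0.37 ± 0.08, adjusted p = 0.0349; 0.0683 without the steady-state array of BY007). Purine and pyrimidine synthesis had a median of -0.32 over 31 genes with 12 called lower. The uridine permease gene FUI1 led it at 12.39, 12.54, 12.36, 11.48, 9.91 and 9.88, a step of -1.57 ± 0.14 (adjusted p = 0.00377). URA1, for dihydroorotate dehydrogenase, and IMD4, for IMP dehydrogenase, stepped by -0.80 and -0.86 and lost their calls with array medians set equal (adjusted p = 0.0501 and 0.0511).

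The falls were set against arrays that did not measure the step. In BY006 and BY007, 24 min was compared with 7 min, which shares no array with the step, though the spread comes from the same fit. All 388 genes called lower in the step were lower at 24 min in both fermentations, and limma called 384 of them lower there, where 28.6% of all genes were called lower and 36.1% higher. SPB1 fell by 4.04 in BY006 and 4.14 in BY007, and NHP2 by 2.77 and 2.59. All 50 processome genes were called lower there, and 70 of the 72 60S factors. These intervals run from 7 to 24 min and say nothing of what happened between 10 and 14 min in those cultures.

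After 14 min the falls parted. Of the 388, 155 read higher at 24 than at 14 min in BY005 and 233 lower, 64 of them by at least 1 log2 unit, and 247 stayed within 0.5 of their 14 min level. Their median change from 14 to 24 min was -0.15, against 0.13 for all genes. A low value on the 14 min array works towards a called fall and raises the later change. The median share of the change from steady state to 24 min that fell into the 4 min of the step was 43.9%. It was taken over those of the 388 whose change by 24 min was at least 1 log2 unit. Choosing genes by their step raises this share. SPB1, CGR1 and FUI1 had reached their 24 min level at 14 min. GNP1, URA1 and IMD4 went on falling, with log2 changes of -2.61, -1.86 and -1.88 from 14 to 24 min.

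Whether falls sped up at 10 min was asked by comparing rates, in log2 units per min, in BY005. Over the called falls the median rate was -0.154 from 7 to 10 min, -0.200 from 10 to 14 min and -0.0152 from 14 to 24 min. The processome's median rate was -0.34 before 10 min, -0.39 from 10 to 14 min and -0.02 after, and that of the 60S factors -0.30, -0.36 and -0.05. Over all genes the median rates were 0.005, -0.020 and 0.013. The 14 min array had the lowest median of all arrays, which enters every rate from 10 to 14 min. Of the 50 processome genes, 20 fell fastest from 7 to 10 min, 29 from 10 to 14 min and 1 after. Of the 72 60S factors the counts were 18, 51 and 3. Over all 5449 genes the same intervals held the lowest rate in 1469, 3011 and 969, so most genes had it from 10 to 14 min. For 302 of the 388 called falls the second rate was lower than the first, as it was for 3818 of all 5449 genes. The 388 were also chosen for their step, and a high value on the 10 min array lowers the second rate and raises the first.

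The test of the change in rate, in which the error of the shared array was counted, called 0 genes (0% of 5449) by limma, with 217 at an unadjusted p under 0.05 (196 below 0 and 21 above) and a smallest adjusted p of 0.934. No fall was therefore called as speeding up. The standard error of a change of rate was 0.0639 per min for the median gene, but 0.115 for SPB1, 0.186 for UTP21 and 0.253 for NOG1. The median change of rate was -0.028 per min in the processome and -0.082 in the 60S factors, against -0.033 for all genes. These errors are of single genes, and none was formed for the median of a list. Leaving out the 10 min array and setting 7 to 14 min against 3 to 7 min called 1 gene, YKR075C, at -0.81 per min (adjusted p = 0.0176), which changed from a rise to a fall.

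**Figure D3:**
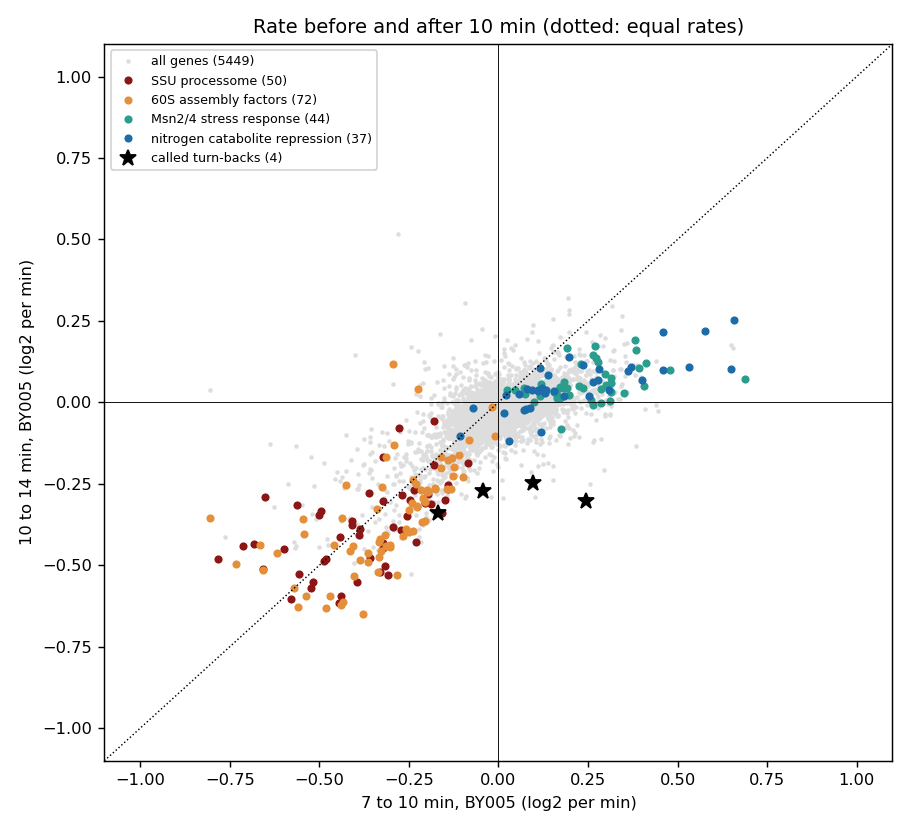
Rate of change from 7 to 10 min (x axis) against that from 10 to 14 min (y axis) in BY005, both in log2 per min, for 5449 genes (grey), 4 gene lists (colours) and the 4 called turn-backs (stars); the dotted line marks equal rates. Most assembly genes lie at the lower left near the line, most stress and nitrogen genes lie right of 0 and below the line, and all 4 stars lie below 0 on the y axis.

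Early rises were taken as genes at least 0.5 higher at 7 min than at steady state in BY005, which uses neither array of the step. There were 378, with a median step of 0.10, and 133 of them (35.2%) had a step below 0, against 66.9% of all genes. Of the 378, 4 (1.06%) were called lower from 10 to 14 min, where 7.12% of all genes were, and 1 was called higher. In all, 25 fell back by at least 0.5, called or not, and 33 rose further by at least 0.5. Of the 25, 21 were above background on both arrays. Without the 7 min array of BY006 in the fit 11 genes were called, with an early rise of at least 1 there were 2, and with a rise of at least 0.5 in all 3 fermentations 2.

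The 4 called turn-backs include regulators of carbon metabolism. YKR075C, a gene of unknown function, read 9.19, 8.86, 11.02, 10.51, 9.15 and 8.48 in BY005. It peaked at 7 min, was back at its steady-state level at 14 min and below it at 24 min, with a step of -1.36 ± 0.22 (adjusted p = 0.0138). HAP4, the limiting subunit of the activator of respiratory genes, read 9.64, 9.49, 10.61, 11.34, 10.12 and 8.70. Up to 24 min its highest value was on the 10 min array, and its step was -1.22 ± 0.22 (adjusted p = 0.0173), a 2.32-fold fall.

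MIG3, a repressor related to the glucose repressor Mig1, read 9.57, 9.62, 10.18, 10.06, 8.97 and 9.25, a step of -1.09 ± 0.18 (adjusted p = 0.0139). MTH1, a corepressor of hexose transporter genes that is degraded when glucose is sensed, read 8.85, 8.62, 10.35, 10.64, 9.64 and 8.59, a step of -0.99 ± 0.24 (adjusted p = 0.0416). MIG3 went below its steady-state level at 14 min, whereas HAP4 and MTH1 did so at 24 min. Later in BY005, at 56 and 120 min, HAP4 read 9.35 and 11.56, MTH1 10.01 and 10.83, YKR075C 9.67 and 9.96 and MIG3 10.12 and 10.12. All 4 were thus higher again than at 24 min, and HAP4 and MTH1 at 120 min were above their 10 min level, with 1 array at each of these times. The call of MTH1 was the weakest of the 4: it was lost with a block for the culture (adjusted p = 0.0618), with array medians set equal (0.0795), after quantile normalization (0.111) and without the steady-state array of BY007 (0.0730).

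In the other cultures the early rise and the later return of these genes were measured at 7 and 24 min. YKR075C read 9.37, 10.46 and 8.49 at steady state, 7 and 24 min in BY006 and 9.21, 10.71 and 8.40 in BY007. HAP4 read 9.67, 10.04 and 8.67 in BY006 and 9.59, 10.36 and 8.52 in BY007. MIG3 read 9.58, 9.92 and 8.88 in BY006 and 9.63, 10.11 and 9.18 in BY007. MTH1 read 8.98, 9.71 and 8.61 in BY006 and 8.87, 10.11 and 8.66 in BY007. All 4 were highest at 7 min and lowest at 24 min in both fermentations, which have no array between those times.

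**Figure D4:**
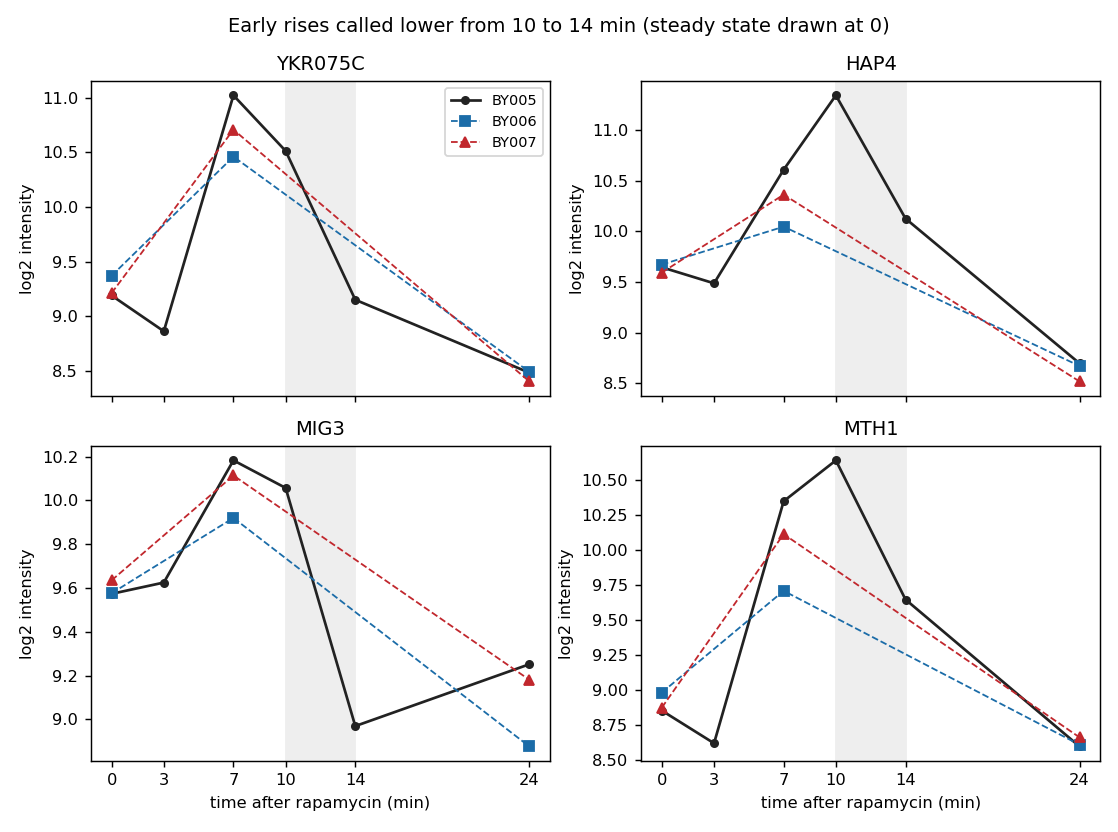
Log2 intensity (y axis, a range of its own in each panel) of YKR075C, HAP4, MIG3 and MTH1 against minutes after rapamycin (x axis; steady state drawn at 0) in BY005 (black circles), BY006 (blue squares) and BY007 (red triangles), with 1 array a point and the interval from 10 to 14 min shaded. Of the times up to 24 min drawn here, HAP4 and MTH1 are highest at 10 min in BY005 and YKR075C and MIG3 at 7 min, and all 4 are lower at 24 than at 7 min in the 3 fermentations.

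Other returns of similar size did not pass. BAP3, a branched-chain amino acid permease gene, read 8.96, 9.32, 9.50, 8.85, 7.14 and 6.60 with the largest step back among the early rises, -1.71 ± 0.53 (adjusted p = 0.0909; 0.0428 with the block). YJR115W, of unknown function, read 7.92, 7.94, 9.30, 9.61, 8.44 and 7.68, a step of -1.16 ± 0.32 (adjusted p = 0.0650). FMP48 stepped by -1.16 ± 0.33 (adjusted p = 0.0732) and the transcription factor gene CIN5 by -1.01 ± 0.63 (adjusted p = 0.428). Of the 25 early rises that fell back by at least 0.5, 15 were lower at 24 than at 7 min in both other fermentations, and 12 were called lower there. Of all 378 early rises, 15 were called lower there and 284 higher. When 14 min was set against 7 min in BY005, which leaves out the 10 min array, 7 early rises were called lower: BAP3, VHR2, YKR075C, FMP48, MIG3, SPS2 and ECL1. HAP4 and MTH1, whose highest value up to 24 min in BY005 was on the 10 min array, were not among them. The 7 min array both chose the early rises and is the baseline of that comparison, so a high value on it works towards such a call; SPS2, one of the 7, read 0.07 from 7 to 24 min in BY006 and -0.34 in BY007.

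The 126 early falls, at least 0.5 lower at 7 min than at steady state, had a median step of -1.31. Of them 44 were called lower and 2 higher, where 7.12% and 0.330% of all genes were. The 2 that came back were ATG41, a gene for autophagy, and YKL068W-A, of unknown function. ATG41 read 11.70, 11.67, 11.02, 10.98, 11.80 and 11.68, a step of 0.82 ± 0.15 (adjusted p = 0.0184). YKL068W-A read 11.06, 11.03, 10.45, 10.79, 11.54 and 10.59, a step of 0.76 ± 0.15 (adjusted p = 0.0250). Both were above their steady-state level at 14 min.

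Glucose signalling and hexose transport had a median step of -0.21 over 25 genes, 5 of them called lower: HXT1, MIG3, MTH1, STD1 and MIG1. HXT1, the low-affinity transporter gene induced by high glucose, read 12.70, 12.79, 12.83, 12.52, 11.39 and 11.12, a step of -1.12 ± 0.21 (adjusted p = 0.0198). STD1, the paralogue of MTH1, read 10.74, 10.62, 10.90, 10.85, 10.12 and 10.01 (-0.72 ± 0.11, adjusted p = 0.0127). MIG1 itself stepped by -0.41 ± 0.10 (adjusted p = 0.0405) and MIG2 by -0.81 ± 0.21 (adjusted p = 0.0576). MTH1 and MIG3 were among the early rises, whereas STD1 and HXT1 read 0.16 and 0.14 above steady state at 7 min. HAP4 was the only gene called in the list of the respiratory chain and ATP synthase with its activator (1 of 36), and the list median was 0.12.

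Amino acid permeases split in direction. BAP2, TAT2, GNP1 and HIP1 were called lower and AGP3 higher, with 21 of 26 uncalled; the median of -0.10 turned to 0.01 with array medians set equal. BAP2, a branched-chain amino acid permease gene induced through the amino acid sensor Ssy1, read 10.06, 10.08, 10.23, 9.54, 8.16 and 7.10, a step of -1.38 ± 0.28 (adjusted p = 0.0238; 0.0808 after quantile normalization). GNP1, for a glutamine permease, read 12.83, 12.80, 12.94, 12.76, 11.90 and 9.29 (-0.86 ± 0.11, adjusted p = 0.00841). TAT2, for the tryptophan permease, read 11.78, 11.87, 11.72, 11.17, 10.16 and 9.86 (-1.0 ± 0.09, adjusted p = 0.00377). GNP1 was level up to 10 min, while TAT2 already read lower at 10 min. Of 46 genes of amino acid synthesis under the activator Gcn4, 9 were called lower and none higher, led by PRO1, for glutamate kinase, at -1.07 ± 0.19 (adjusted p = 0.0165) and LEU9, for an isopropylmalate synthase, at -0.75 ± 0.11 (adjusted p = 0.0104). GCN4 itself stepped by -0.06 ± 0.09 (adjusted p = 0.793).

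The 18 rises were led by membrane transporters. YOL163W and YOL162W, neighbouring genes related to the allantoate permease gene DAL5, had the largest. They lie at 9597 to 10106 and 10119 to 10766 on chromosome XV, and whether both read the same transcript was not tested. YOL163W read 7.30, 7.07, 7.45, 8.03, 9.32 and 8.87, a step of 1.28 ± 0.28 (adjusted p = 0.0290; 0.0524 without the steady-state array of BY006). YOL162W read 8.35, 8.46, 8.37, 8.83, 9.85 and 9.39, a step of 1.02 ± 0.23 (adjusted p = 0.0315; 0.0590 without that of BY007). Both were level up to 7 min and had their BY005 maximum of these 6 arrays at 14 min. SEO1, of the same family, read 7.80, 7.85, 7.65, 7.94, 8.89 and 10.21, a step of 0.95 ± 0.17 (adjusted p = 0.0182). Of the 9 genes of this transporter family measured, 3 were called higher, where 0.330% of all genes were. TNA1, for a nicotinic acid permease, was called lower (-0.37 ± 0.08, adjusted p = 0.0269), where 7.12% of all genes were. The family was picked after these values were seen. DAL5 had made its rise earlier (10.17, 10.12, 12.62, 13.71, 14.09 and 14.30; step 0.38 ± 0.60, adjusted p = 0.794).

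Other transporters among the rises were AGP3 and SUL1. AGP3, a low-affinity amino acid permease gene, read 7.84, 7.77, 7.87, 8.46, 9.33 and 10.10, a step of 0.87 ± 0.17 (adjusted p = 0.0202). SUL1, for a sulfate permease, read 12.02, 12.06, 11.70, 11.98, 12.85 and 13.45, a step of 0.87 ± 0.18 (adjusted p = 0.0276). VBA1, for a vacuolar permease of basic amino acids, stepped by 0.59 ± 0.11 (adjusted p = 0.0205). SUL1 was the one member of 33 called in sulfur assimilation and methionine synthesis. All 18 rises were higher at 24 than at 7 min in both BY006 and BY007, and 17 were called higher there, beside the 36.1% of all genes; AGP3 rose by 2.54 and 2.47.

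**Figure D5:**
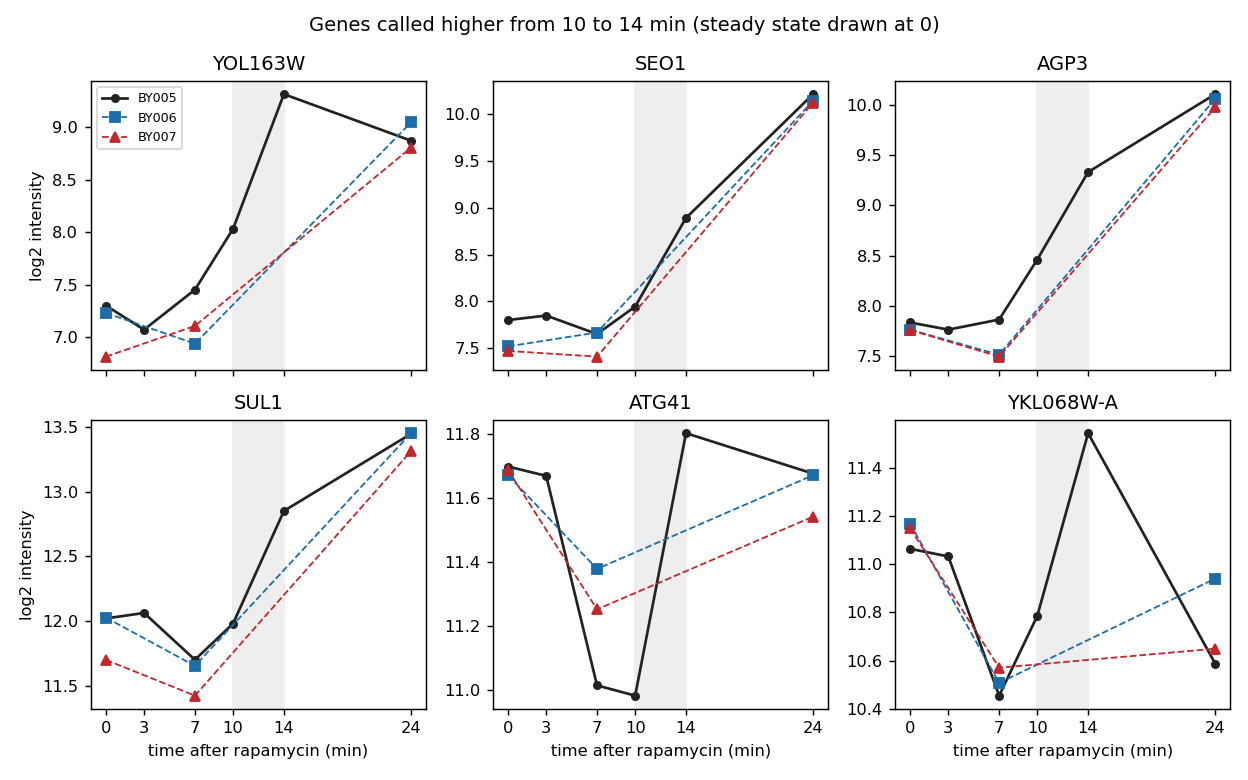
Log2 intensity (y axis, a range of its own in each panel) of 6 genes called higher from 10 to 14 min against minutes after rapamycin (x axis; steady state drawn at 0) in BY005 (black circles), BY006 (blue squares) and BY007 (red triangles), with 1 array a point and the interval from 10 to 14 min shaded. YOL163W, SEO1 and AGP3 are level up to 7 min in BY005, and ATG41 and YKL068W-A are below steady state at 7 min and above it at 14 min.

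The remaining rises were of genes with mixed roles. FMO1, a flavin monooxygenase gene, read 9.17, 9.25, 9.55, 10.28, 11.15 and 11.20, a step of 0.87 ± 0.17 (adjusted p = 0.0237). ALD2, an aldehyde dehydrogenase gene, stepped by 0.79 ± 0.17 (adjusted p = 0.0308; 0.0537 without the 7 min array of BY007) and RTN2, a reticulon gene, by 0.77 ± 0.17 (adjusted p = 0.0287; 0.0511 without the steady-state array of BY005). GDB1, for the glycogen debranching enzyme, read 9.43, 9.51, 9.87, 10.71, 11.40 and 11.82 (0.69 ± 0.15, adjusted p = 0.0276; 0.0539 without the steady-state array of BY006). FMP45, NQM1, GCY1 and PCI8 stepped by 0.63, 0.62, 0.58 and 0.50; the adjusted p of NQM1, 0.0486, became 0.0532 with the block and 0.0830 without the steady-state array of BY007, and that of GCY1, 0.0374, became 0.0692 without the same array. ATG9, for the membrane protein that seeds autophagosomes, read 8.97, 9.09, 9.01, 9.69, 10.18 and 10.38 (0.49 ± 0.10, adjusted p = 0.0251; 0.0515 without the steady-state array of BY006). ASP3-1, for a cell wall asparaginase, stepped by 0.42 ± 0.08 (adjusted p = 0.0182), with a probe set shared by near-identical copies of the gene, which cannot be told apart.

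Lists that had risen by 10 min had 0 to 2 genes called higher each in this interval, where 0.330% of all genes were. Their steps were mostly above 0, in 29 of 37 nitrogen, 41 of 44 stress, 14 of 21 trehalose and glycogen and 26 of 31 autophagy genes. Over all genes 1801 of 5449 steps were above 0. The SD of a difference between arrays for the list mean was 0.28 for the nitrogen list and 0.29 for the stress list, above their median steps. With array medians set equal every list's median step moves up by about the 0.115 of all genes, which is over 1.5 times for the small ones: the nitrogen list's step goes from 0.15 to 0.27 and the stress list's from 0.18 to 0.29. The median change from steady state of the nitrogen catabolite repression list, 37 genes kept off while glutamine is sensed, was 1.39 at 10 min and 1.45 at 14 min. Its median rate went from 0.14 per min before 10 min to 0.04 per min, with 1 gene, ASP3-1, called higher. The allantoin and urea genes had 3.28 and 3.63 at the same times, with none of 10 called; DAL80, for the GATA repressor, read 9.28, 9.67, 12.61, 13.44, 13.72 and 13.65 (step 0.28 ± 0.64, adjusted p = 0.865). GAP1, the general amino acid permease gene, read 13.46, 13.34, 13.77, 13.95, 14.05 and 14.08 and MEP2, the ammonium permease gene, 13.30, 13.39, 14.01, 14.29, 14.45 and 14.51. Neither the step of 0.11 ± 0.16 nor that of 0.15 ± 0.15 was called (adjusted p = 0.793 and 0.636).

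The 44 targets of the stress activators Msn2 and Msn4 had a median change from steady state of 1.47 at 10 min and 1.71 at 14 min, and RTN2 and GCY1 were called higher. Their median rate was 0.25 per min before 10 min and 0.04 per min after. CTT1, for cytosolic catalase, read 10.25, 10.19, 11.52, 12.74, 12.94 and 12.97 (step 0.20 ± 0.58, adjusted p = 0.900). Trehalose and glycogen genes had 1.70 and 1.74 with GDB1 called higher of 21, and autophagy and vacuolar protease genes 0.86 and 1.15 with ATG9 called higher of 31. Heat shock chaperones (26 genes) and the proteasome (33) had no call, with median steps of 0.04 and 0.03, and of 0.15 and 0.14 with array medians set equal. CIT2, a retrograde pathway gene for peroxisomal citrate synthase, read 10.24, 10.24, 10.75, 11.20, 11.90 and 13.17: it was higher again at 24 min, and the step of 0.70 ± 0.26 was not called (adjusted p = 0.166).

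Of the 52 genes of TOR and nutrient signalling, RAP1 was called, at -0.39 ± 0.08 (adjusted p = 0.0221; 0.104 with array medians set equal, under which the list's median of -0.09 turned to 0.03). RAP1 encodes a general regulator of ribosomal protein genes. IFH1, their coactivator, read 10.43, 10.53, 10.02, 8.95, 8.12 and 8.85, a step of -0.83 ± 0.22 (adjusted p = 0.0576). TOD6, a repressor of ribosome biogenesis genes, read 9.57, 9.84, 8.41, 6.11, 4.46 and 5.61; its 14 min level was under the background of 5.63, which leaves a difference of at least 1.40-fold, and the step was not called (adjusted p = 0.234). TOR1, SCH9, SFP1, GLN3, GAT1, URE2, DOT6, STB3, MSN2, MSN4, RIM15 and NPR1 had uncalled steps between -0.29 and 0.16.

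Further lists had 0 to 4 genes called lower each, where 7.12% of all genes were. The share was 16% in iron uptake, and 10.5% in phosphate uptake and in mitotic regulators. Iron uptake had 4 of 25 called lower, with the high-affinity permease gene FTR1 at -0.79 ± 0.12 (adjusted p = 0.0112) and its oxidase partner FET3 at -0.51 ± 0.09 (adjusted p = 0.0165; 0.0540 with array medians set equal); the list median was -0.37, and -0.06 after quantile normalization. Phosphate uptake had PHO90 and PHO3 called lower of 19, at -0.80 and -0.72 (adjusted p = 0.0139 and 0.0433; that of PHO3 was 0.447 after quantile normalization). Among mitotic regulators HSL7 and CDC5 were called lower of 19, at -0.39 and -0.27, and both lost the call with array medians set equal (adjusted p = 0.165 and 0.267). IDP2, for cytosolic isocitrate dehydrogenase, was called lower in the list of the TCA and glyoxylate cycles (1 of 35; -0.52 ± 0.07, adjusted p = 0.00962, and 0.0586 after quantile normalization).

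No gene was called in the lists of glycolysis and fermentation (22 genes), ergosterol synthesis (25), G1 and S phase regulators (24), core histones (9), meiosis and sporulation (26), mRNA decay (28) and reference genes (8). Their median steps lay between -0.12 and 0.06; those of G1 and S phase, meiosis, mRNA decay, phosphate uptake and mitotic regulators changed sign under another scaling. ACT1, the actin gene, read 14.15, 14.09, 14.17, 14.27, 14.28 and 14.39 (step 0.01 ± 0.07, adjusted p = 0.964). The G1 cyclin gene CLN3 stepped by 0.06 ± 0.40 and CLN2 by -0.27 ± 0.16, neither called.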

How the data were processed

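Total RNA of 14 yeast culture samples was measured on Affymetrix Yeast Genome 2.0 arrays. Per the submitters' processing notes, the deposited intensities were summarised by RMA with affy under R 2.10.0. RMA subtracts background, quantile-normalizes the arrays and summarises each probe set, so a shift shared by most transcripts is removed. The intensities are on a linear scale, with array medians over genes between 1592 and 1776. The planned test assumed log2 values, so logarithms to base 2 were formed before it and it was otherwise kept.

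Of 10928 probe sets, 5498 matched a single budding yeast gene and gave 5449 genes, 47 of them means of several probe sets; 12 symbols were updated through the gene ID with a gene table of assembly R64. Another 1746 probe sets for fission yeast gave the background. Scanner files and scan dates were not used here.

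The fit (limma 3.58.1, R 4.3.3, functions lmFit and eBayes, 8 time groups, no block, 6 residual and 2.43 prior degrees of freedom) gave all adjusted p-values, with Benjamini-Hochberg adjustment over the 5449 genes; errors after ± are its standard errors. The rate test used the same fit for the 10 to 14 min rate minus the 7 to 10 min rate. The script was tested on simulated data. Samples of 1 fermentation come from the same culture, per the labels, so the fermentation pairs them: deviations from the time means correlated within a fermentation between -0.16 and 0.53 across genes, and the block was fitted as an alternative. The fermentations are separate cultures.

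Genes named are drawn from the 15 largest called falls and rises above background, up to 10 called turn-backs, the 3 largest called members of each list in each direction, and 29 regulators and markers of the pathway; genes outside this rule (such as UTP13, NOC2, BAP3, STD1 and DAL5) were chosen after their values were seen, as were the subcomplexes. Members and lists were chosen with earlier results of these data known. Of the list members, 18 lacked a probe set of their own and were not analysed here.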

Additional observations from a re-analysis of the deposited data

How the results depend on the processing

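Of the 73 called genes named, none changed direction under any alternative; the call held for 62 with the fermentation as a replicate block, 50 with array medians set equal, 63 after quantile normalization over genes alone, 73 without dim genes, 72 with an intensity trend in the prior, 72 without probe sets that share probes (1 was not measured there) and 48 in all 9 fits that left out 1 array. Leaving out an array keeps the step itself and changes its error. The 388 genes called lower became 171 with array medians set equal and 236 after quantile normalization, and ranged from 231 to 496 with 1 array left out, the lowest without the steady-state array of BY007 (235 without that of BY006). The 18 called higher became 40 with the replicate block, 28 with medians set equal and 105 after quantile normalization, and ranged from 11 (without the steady-state array of BY006 or of BY007) to 41 (BY006 left out at 7 min; leaving out BY005 there gave 34). The 4 called turn-backs became 2 with an early rise of at least 1 or in all fermentations, 7 at 14 against 7 min, and 3 to 11 with 1 array left out; the 11 came with BY006 left out at 7 min, and without the steady-state or 7 min array of BY005 the early rise has no value. The replicate block gave 365 lower, 5 turn-backs and no called change of rate. Called changes of rate, 0 throughout those fits, became 1 without the 10 min array. That gene, YKR075C, also meets the count rule for falls that speed up, which then gives 1, but it rose from 3 to 7 min, so it turned and no fall was called as speeding up. The cause of these shifts was not tested. Of 5449 genes, 98 lay under the background on both arrays, where no step can be read.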

Other observations

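Of the 388 falls, 195 belonged to none of the gene lists, and the largest of them, chosen after their values were seen, include more ribosome assembly genes. ESF2, for a small subunit processing factor, stepped by -1.81 ± 0.41 (limma adjusted p = 0.0331, and 0.0544 with the fermentation as a block). TSR1, for a late cytoplasmic factor of the small subunit, read 11.53, 11.57, 11.17, 10.35, 8.69 and 7.14 at steady state, 3, 7, 10, 14 and 24 min in BY005, and its step was -1.66 ± 0.28 (adjusted p = 0.0139). NOB1, for the nuclease that makes the final cut of 18S rRNA, stepped by -1.32 ± 0.21 (adjusted p = 0.0139). BUD27, for a protein involved in assembling RNA polymerases, read 10.25, 10.51, 10.09, 8.94, 7.01 and 7.09, a step of -1.93 ± 0.32 (adjusted p = 0.0139). DPH1, for the first step of diphthamide synthesis on elongation factor 2, read 11.17, 11.13, 10.64, 9.77, 8.26 and 7.67 (-1.51 ± 0.18, adjusted p = 0.00700). Of the 5 diphthamide genes 3 were called lower, where 7.12% of all genes were.

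Others are transporters and enzymes with no tie to the ribosome in these lists. AQR1, for a plasma membrane exporter of amino acids, read 12.10, 12.22, 11.03, 8.69, 6.77 and 7.59, and its step was -1.92 ± 0.48 (adjusted p = 0.0464, and 0.0818 with the fermentation as a block). ATO3, for a putative ammonium exporter, read 11.52, 11.41, 11.24, 10.70, 9.48 and 8.55 (-1.22 ± 0.14, adjusted p = 0.00652), and MAE1, for the mitochondrial malic enzyme, 12.65, 12.60, 12.52, 12.01, 10.78 and 9.51 (-1.22 ± 0.16, adjusted p = 0.00841). RAS1, for one of the Ras GTPases, stepped by -0.87 ± 0.14 (adjusted p = 0.0139). In the other direction, MLS1, for the malate synthase of the glyoxylate cycle, read 5.93, 6.15, 6.85, 7.80, 8.98 and 11.07 and was higher on each BY005 array than on the one before, up to 24 min, with an uncalled step of 1.18 ± 0.39 (adjusted p = 0.115).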
